A study of Mus musculus with 16 samples.

Results

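The genes described here are 10 components of bone morphogenetic protein (BMP) and transforming growth factor beta (TGF-beta) signaling in endothelial cells. They are the receptors *Acvrl1*, *Bmpr2*, *Tgfbr2* and *Eng*, the signal transducers and inhibitors *Smad1*, *Smad6* and *Smad7*, and the target genes *Id1*, *Id2* and *Id3*. They were chosen by name from the 39057 gene identifiers of the count table, and all 10 passed the filter on low counts that left 12481 genes for testing. Bulk RNA was sequenced from 16 primary endothelial cultures of mouse brain, with 8 cultures per genotype (*APOE3* and *APOE4*) and 4 males and 4 females in each. Both lines are targeted-replacement mice aged 21 to 28 days, in which human apolipoprotein E3 or E4 stands in place of the mouse protein under the mouse promoter in every cell type of the animal, so the donor brain carried the same isoform as the cultured cells. Each culture came from the cortex of 1 animal and was selected with puromycin at 8 µg/ml, and both genotypes received the same treatment. The comparison asks whether the human *APOE* genotype goes with different levels of these genes in endothelial cells grown alone.

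BMP and TGF-beta ligands bind pairs of type I and type II serine/threonine kinase receptors, often with the help of a co-receptor. In endothelial cells *Acvrl1* (ALK1) is the type I receptor for the circulating ligands BMP9 and BMP10, *Bmpr2* is its usual type II partner, and *Eng* (endoglin) presents ligand to it. *Tgfbr2* is the type II receptor for TGF-beta. Active ALK1 phosphorylates Smad1, which enters the nucleus with Smad4 and raises the transcription of *Id1*, *Id2* and *Id3*, whose proteins hold back basic helix-loop-helix factors, and of *Smad6* and *Smad7*, which inhibit the pathway in turn. Loss of *ENG* or *ACVRL1* in people causes hereditary hemorrhagic telangiectasia, in which arteries and veins join without capillaries.

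On the GRCm38 assembly with GENCODE gene models, *Acvrl1* (ENSMUSG00000000530.16) spans chr15:101128522-101145336 and *Eng* (ENSMUSG00000026814.16) spans chr2:32646595-32682669, both on the plus strand. *Bmpr2* (ENSMUSG00000067336.6) lies at chr1:59763400-59879014 on the plus strand and *Tgfbr2* (ENSMUSG00000032440.13) at chr9:116084293-116175360 on the minus strand. Of the Smad genes, 2 lie at chr8:79338395-79399518, minus strand (*Smad1*, ENSMUSG00000031681.16) and chr9:63953076-64022059, minus strand (*Smad6*, ENSMUSG00000036867.7), and *Smad7* is ENSMUSG00000025880.11. The Id genes are short, at chr2:152736251-152737410, plus strand (*Id1*, ENSMUSG00000042745.9), chr12:25093799-25097140, minus strand (*Id2*, ENSMUSG00000020644.8) and chr4:136143497-136145755, plus strand (*Id3*, ENSMUSG00000007872.3). Each value is a sum over all annotated exons, and no isoform was measured. *Eng* shares 61 exonic bases with *Fpgs* on the other strand and *Acvrl1* shares 127 exonic bases with *Gm16031*. The setting used to assign strand was not given in the sources used here.

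*Id2*, *Id3* and *Smad6* are among the 5 targets and inhibitors (with *Id1* and *Smad7*) of which 8 of 10 pairs varied together across libraries, and their promoters are shown for that reason; *Smad6* did not pass with *Id3* or *Id1*. Each window runs from 250 bases before to 50 bases after the RefSeq start site on GRCm38.p6. The *Id2* window is chr12:25096043-25096342 (minus strand), the *Id3* window chr4:136143572-136143871 (plus strand) and the *Smad6* window chr9:64022010-64022309 (minus strand). Capitals mark the Smad-type letters CAGAC, or GTCTG on the other strand, and the palindrome GGCGCC.
Id2: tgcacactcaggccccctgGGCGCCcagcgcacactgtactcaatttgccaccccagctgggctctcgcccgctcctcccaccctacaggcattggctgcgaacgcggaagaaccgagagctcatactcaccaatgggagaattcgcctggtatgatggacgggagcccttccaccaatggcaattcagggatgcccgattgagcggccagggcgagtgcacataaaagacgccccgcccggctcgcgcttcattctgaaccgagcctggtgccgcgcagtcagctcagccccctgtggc
Id3: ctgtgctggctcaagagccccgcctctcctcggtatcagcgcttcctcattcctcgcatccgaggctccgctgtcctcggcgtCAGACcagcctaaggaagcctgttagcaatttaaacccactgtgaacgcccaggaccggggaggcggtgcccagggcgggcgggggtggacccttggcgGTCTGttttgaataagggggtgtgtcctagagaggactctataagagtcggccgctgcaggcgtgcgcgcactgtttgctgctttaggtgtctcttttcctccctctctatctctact
Smad6: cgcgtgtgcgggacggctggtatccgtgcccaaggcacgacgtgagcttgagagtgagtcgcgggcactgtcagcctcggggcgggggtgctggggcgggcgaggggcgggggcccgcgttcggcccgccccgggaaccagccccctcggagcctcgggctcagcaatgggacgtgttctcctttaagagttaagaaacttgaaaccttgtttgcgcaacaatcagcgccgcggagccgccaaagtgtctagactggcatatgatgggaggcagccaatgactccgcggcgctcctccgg
*Id3* held 2 matches to CAGAC on either strand, *Id2* held 1 match to GGCGCC, and *Smad6* held neither. Across all 32851 promoters of the table, 49.6% held CAGAC or GTCTG and 11.9% held GGCGCC. Of the 10 genes, 7 had a promoter in the table. Among the others shown there, *Eng* held 2 and *Tgfbr2* 1 match to CAGAC, *Bmpr2* held 1 match to GGCGCC, and *Smad1* held neither. The E-box letters CANNTG, which can share only end bases with the other motifs, were found once each in *Eng*, *Tgfbr2*, *Smad6* and *Id2*, against 72.3% of all promoters with at least 1.

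Library totals ran from 12717847 to 18624417 counts. Human *APOE* was lower in *APOE4* (796 CPM against 1171.6 in *APOE3*, log2 fold change -0.56 ± 0.099 SE, edgeR adjusted p = 0.005419), where CPM is the count scaled to library size after normalization for library composition. Endothelial identity was plain in every library: *Pecam1* averaged 3640 CPM, and the 16 endothelial markers summed to 20620 to 21920 CPM in *APOE3* and 20540 to 22470 CPM in *APOE4*. *Mfsd2a*, a lipid transporter of the mature blood-brain barrier, averaged 3.41 CPM. Of 59 markers of 7 other cell types, 38 averaged under 1 CPM, and the microglial *P2ry12* and *Trem2* and the oligodendrocyte *Olig2* were at 0 in every library. The highest of the 59 were *Acta2* (mural list, 82.1 CPM), *Gja1* (astrocyte list, 35.0 CPM), *Cnp* (oligodendrocyte list, 30.5 CPM) and *Lyve1* (lymphatic list, 27.1 CPM). Some mural and fibroblast markers were counted in every library. Mural *Pdgfrb* averaged 5.42 CPM and *Cspg4* 7.34 CPM, and fibroblast *Col1a1* averaged 12.9 CPM and *Col1a2* 16.2 CPM. Under 1 CPM were 5 of 12 mural and 4 of 9 fibroblast markers. A score of 40 cell cycle genes (their mean log2 CPM) was 5.55 ± 0.36 (SD, n = 8) in *APOE3* and 6.15 ± 0.28 (SD, n = 8) in *APOE4* (exact permutation test, two-sided, p = 0.00202). These genes were scored because earlier results of the same libraries had shown them to differ between genotypes. The p-value is therefore not an independent test of that difference.

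Per kilobase of exon, the co-receptor stood far above the kinases it serves. *Eng* averaged 1008 ± 136 CPM per kb (SD, n = 16), followed by *Id1* at 287.5 ± 49.6 CPM per kb and *Acvrl1* at 235 ± 9.6 CPM per kb. *Tgfbr2* (188.5 CPM per kb) and *Id3* (183 CPM per kb) did not differ beyond their spread (*Tgfbr2* higher in 10 of 16 libraries, exact sign-flip permutation test, two-sided, p = 0.247), with a mean log2 difference of 0.053. *Smad1* (63.0 CPM per kb), *Bmpr2* (21.4 CPM per kb) and *Smad6* (12.98 CPM per kb) followed in that order in all 16 libraries. *Id2* (7.74 CPM per kb) and *Smad7* (6.88 CPM per kb) came last, *Id2* being higher in 10 of 16 libraries (adjusted p = 0.0288 over the 9 neighbouring pairs, same exact test). With the length of the longest transcript in place of merged exons, *Id1* and *Acvrl1* did not differ in order (*Id1* higher in 8 of 16 libraries, exact test p = 0.448) and *Id3* (256 CPM per kb) stood above *Tgfbr2* (191 CPM per kb).

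The other receptors measured were lower than *Eng*, *Acvrl1* and *Tgfbr2* on the same per-kb scale. *Tgfbr3* (betaglycan, the other large co-receptor) averaged 56.7 CPM per kb, and *Acvr1*, a BMP type I receptor, 12.4 CPM per kb. *Tgfbr1*, the type I partner of *Tgfbr2*, averaged 5.75 ± 0.52 CPM per kb (SD, n = 16). The BMP type I receptors *Bmpr1a* (0.177 CPM per kb) and *Bmpr1b* (0.0019 CPM per kb) were far lower. Among ligands, *Bmp4* (178 CPM per kb) and *Bmp6* (125 CPM per kb) were the highest, while *Gdf2* and *Bmp10*, which encode BMP9 and BMP10, were at 0 in all 16 libraries.

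**Figure D1:**
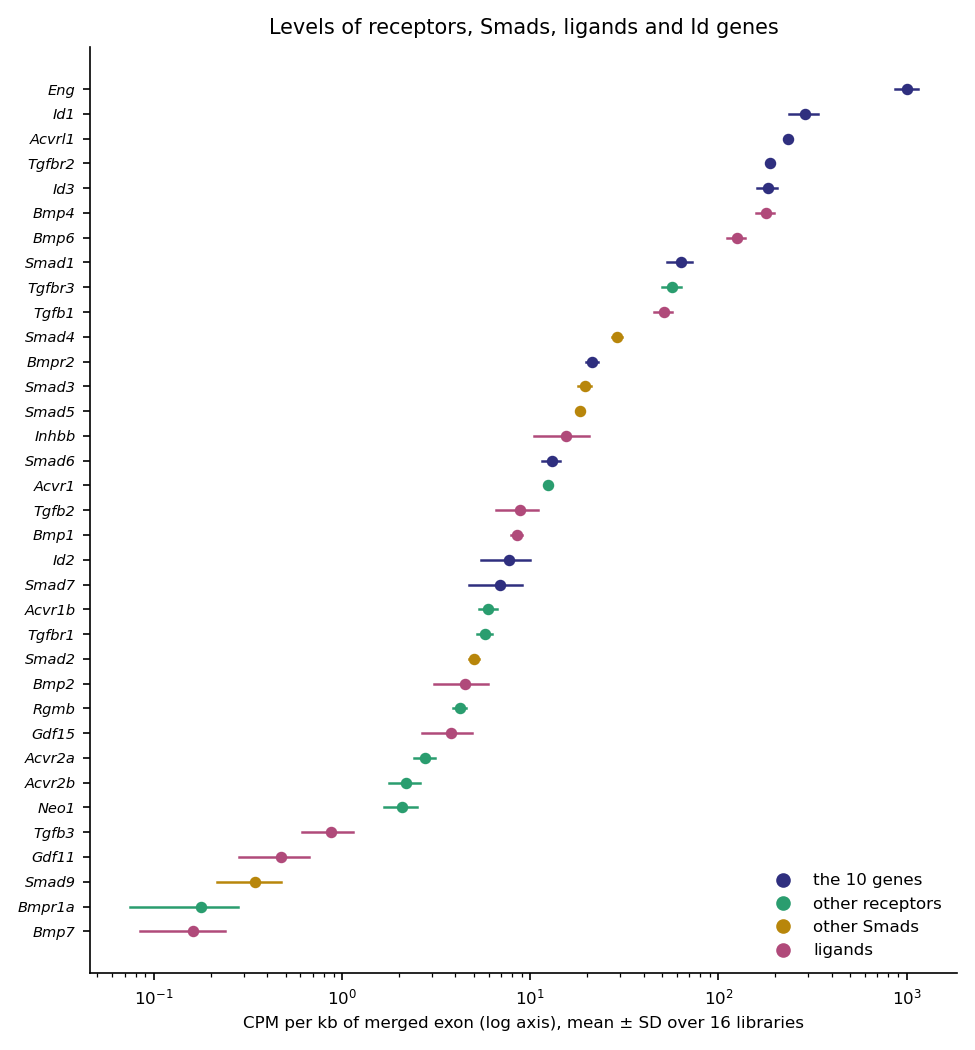
CPM per kb of merged exon (log axis) for the 10 genes, other receptors, other Smads and ligands that passed the filter on low counts; points are means and bars SD over 16 libraries. *Eng* leads at 1008 CPM per kb, and *Bmpr1a* (0.177 CPM per kb) is near the bottom.

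None of the 10 genes differed between genotypes at an adjusted p under 0.05 (edgeR quasi-likelihood test, Benjamini-Hochberg adjustment over 12481 genes). Over all tested genes 12.8% did (1597 genes), and 10 genes are too few to tell a count of 0 from that share. Unadjusted, 3 of 10 genes had a p under 0.05 (*Smad1*, *Acvrl1* and *Id3*), near the background of 29%. No gene was called higher (background 6.71%) or lower (background 6.09%). The log2 fold change was below 0 for 7 genes and above 0 for 3, against 49.9% above 0 over all tested genes, with a median of -0.082 against -0.000219 over all tested genes. In no gene were the 8 *APOE4* libraries apart from the 8 *APOE3* libraries, which was so for 0.625% of tested genes. In bulk RNA, fewer cells of a kind and less RNA per cell cannot be told apart. With known changes put into simulated counts for this comparison, 95 of 200 genes were recovered at a log2 change of 0.3, 145 of 200 at 0.5 and 192 of 200 at 1. The 200 were drawn at random from tested genes of all levels and were fewer than the 1597 called here. The recovery therefore does not say how often changes in these 10 genes would be found.

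*Acvrl1* had the narrowest spread of the 10. Its CPM was 985 to 1104 in *APOE3* (median 1019.7) and 952 to 1041 in *APOE4* (median 974). The ranges overlapped: 6 of 8 *APOE4* libraries lay below the lowest *APOE3* library, *APOE4* replicate 38 lay just above it, and *APOE4* replicate 36, at 1041 CPM, was the highest of its genotype. The difference in *APOE4* was -5.03% (95% interval -8.93% to -0.957%, adjusted p = 0.09465). Without *APOE4* replicate 36 the log2 fold change moved from -0.074 to -0.088 and passed (adjusted p = 0.04867), and DESeq2's Wald test, in all libraries, also called it (adjusted p = 0.0339). *Acvrl1* tended to be lower where the cell cycle score was higher (Pearson r = -0.55, permutation p = 0.0369, adjusted p = 0.148 over 20 relations), and with that score in the fit its adjusted p was the highest of its alternatives, 0.8915.

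*Bmpr2*, the type II partner, ranged from 366 to 412 CPM in *APOE3* (median 399.6) and from 319 to 425 CPM in *APOE4* (median 374). The *APOE4* libraries thus reached both below and above those of *APOE3*, and the SD was 35.4 CPM in *APOE4* against 14.9 CPM in *APOE3*. Its log2 fold change was -0.089 (95% interval -0.19 to 0.013, adjusted p = 0.2401).

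*Tgfbr2* stayed within a narrow range, 1386 to 1607 CPM in *APOE3* (median 1539.9) and 1454 to 1610.3 CPM in *APOE4* (median 1574). Its log2 fold change of 0.027 had a 95% interval of -0.040 to 0.094 (adjusted p = 0.6238), which is -2.74% to 6.73%. *Tgfbr2* was higher where the score of the 16 endothelial markers (their mean log2 CPM) was higher, by rank (Spearman rho = 0.853, permutation p = 0.00016, adjusted p = 0.0032 over 20 relations) but not past the threshold by Pearson's r (0.656, permutation p = 0.00381, adjusted p = 0.052); r was 0.81 without the 2 libraries farthest from the median score. *Smad1* also followed that score by rank (Spearman rho = 0.747, permutation p = 0.00139, adjusted p = 0.0139) but not by Pearson's r (0.597, permutation p = 0.0215, adjusted p = 0.143). That score averaged 9.63 in *APOE3* and 9.60 in *APOE4* (exact permutation test, two-sided, p = 0.0502).

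*Eng* ran from 3057 to 4608 CPM in *APOE3* (median 4065) and from 2852 to 4992 CPM in *APOE4* (median 4291). In each genotype 1 library fell well below the others, *APOE3* replicate 33 and *APOE4* replicate 43. The log2 fold change was 0.049 (95% interval -0.14 to 0.24, adjusted p = 0.7672).

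**Figure D2:**
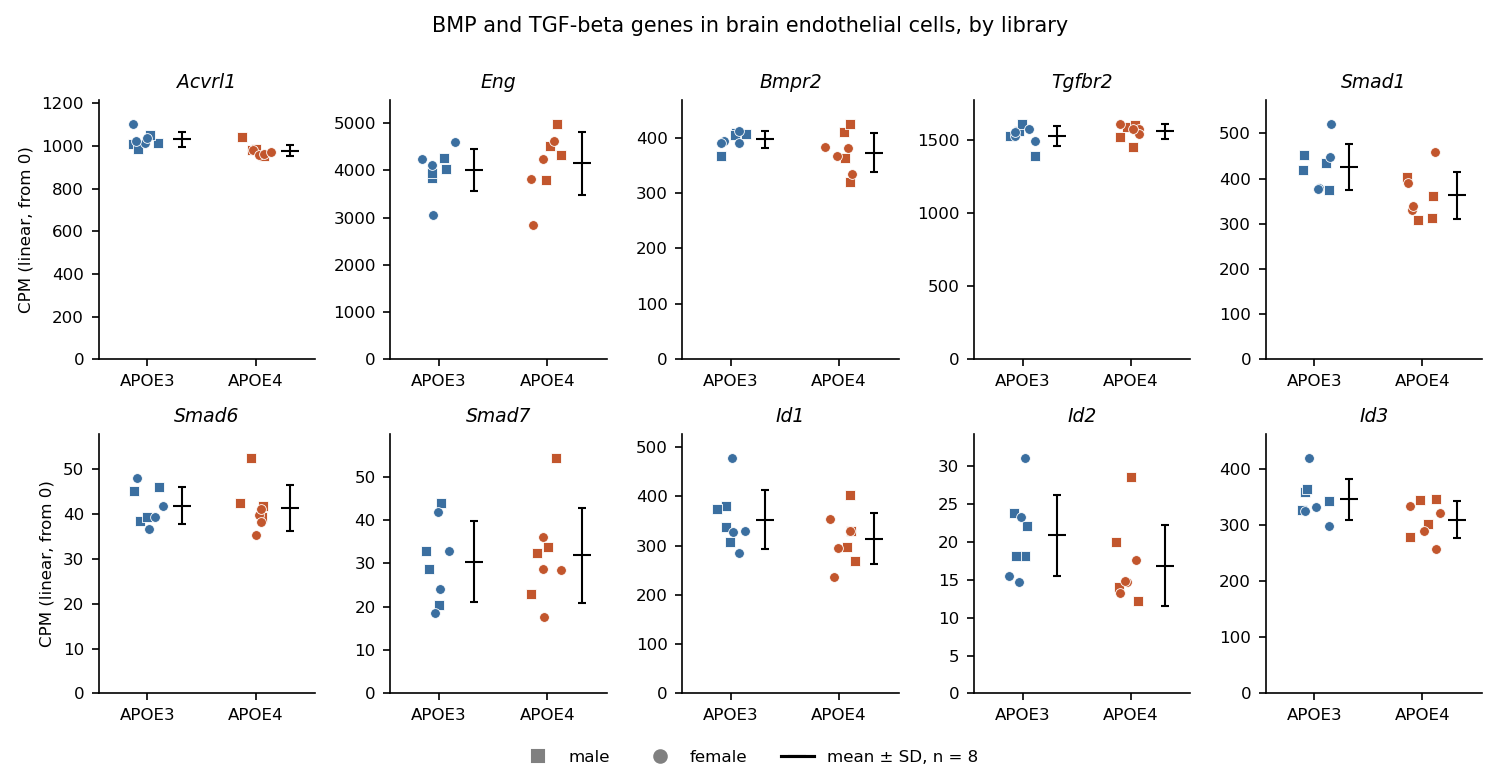
CPM (linear axis from 0) of each gene in every library, by genotype, with squares for males and circles for females; the bar beside each group is the mean ± SD of 8 libraries. The ranges of the genotypes overlap in all 10 panels, and *Eng* shows 1 low library in each genotype (3057 and 2852 CPM).

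Among the Smads, *Smad1* came closest to the threshold. It ranged from 375 to 522 CPM in *APOE3* (median 428) and from 309 to 458 CPM in *APOE4* (median 351). Of the *APOE4* libraries, 5 lay below every *APOE3* library and 7 below the *APOE3* median, while replicate 43, at 458 CPM, exceeded that median. The fitted difference in *APOE4* was -14.7% (95% interval -24.1% to -4.29%, adjusted p = 0.06232), or -0.23 ± 0.080 (SE) as a log2 value. The gene was called without *APOE3* replicate 25 (adjusted p = 0.04936), without *APOE3* replicate 31 (0.03933) or without *APOE4* replicate 43 (0.01462), and with DESeq2's Wald test (0.03646). Within genotypes *Smad1* was lower where the cell cycle score was higher by rank (Spearman rho = -0.721, permutation p = 0.0029, adjusted p = 0.0193), while Pearson's r of -0.673 did not pass (permutation p = 0.0052, adjusted p = 0.052) and was -0.598 without the 2 libraries farthest from the median score. With that score in the fit the log2 fold change of *Smad1* was 0.0025. The part of the cell cycle genes in the difference was not tested.

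The medians of the inhibitory Smads were close in the 2 genotypes, and the 2 genes differed in how far they ranged. *Smad6*, which blocks mainly the BMP branch, ranged from 36.7 to 48.1 CPM in *APOE3* (median 40.6) and from 35.3 to 52.6 CPM in *APOE4* (median 40.5), with an adjusted p of 0.8889. *Smad7*, which blocks both branches, varied far more, from 18.4 to 43.9 CPM in *APOE3* (median 30.8) and from 17.7 to 54.3 CPM in *APOE4* (median 30.6). Its highest library was 2.38 times its lowest in *APOE3* and 3.07 times in *APOE4*, against 1.31 and 1.49 times for *Smad6*. The 95% interval of the *Smad7* log2 fold change, -0.34 to 0.47, was correspondingly wide (adjusted p = 0.8652).

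The 3 Id genes all had lower means in *APOE4* without passing the threshold. *Id1* ranged from 284 to 478 CPM in *APOE3* (median 335) and from 236 to 402 CPM in *APOE4* (median 313), a log2 fold change of -0.17 (95% interval -0.38 to 0.043, adjusted p = 0.2875). *Id3* ranged from 297 to 419 CPM in *APOE3* (median 337) and from 256 to 347 CPM in *APOE4* (median 311), a log2 fold change of -0.16 (95% interval -0.30 to -0.020, adjusted p = 0.1192). For both genes 6 of 8 *APOE4* libraries lay below the *APOE3* median. *Id2*, the least abundant of the 3, ranged from 14.7 to 31.1 CPM in *APOE3* (median 20.1) and from 12.2 to 28.5 CPM in *APOE4* (median 14.8). Its log2 fold change of -0.31 was the largest in size of the 10 genes and also carried a wide 95% interval, -0.65 to 0.041 (adjusted p = 0.234). *APOE4* replicate 38 held the highest *Id2* of its genotype, and without it the log2 fold change was -0.46 (adjusted p = 0.04083).

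Splitting by sex left 4 libraries per group. No gene of the 12481 passed at an adjusted p under 0.05 within males, within females or for the difference between them (edgeR, 4-group fit), although 14.2%, 19.5% and 2.76% of genes had an unadjusted p under 0.05 in these 3 contrasts. For the 10 genes the adjusted p of the difference between the sexes was 0.9999, and the lowest unadjusted p was 0.2282 (*Acvrl1*). *Acvrl1* had a log2 fold change of -0.11 in females (95% interval -0.20 to -0.022) and -0.037 in males (95% interval -0.13 to 0.053). *Id2* had -0.49 in females (95% interval -0.99 to 0.0081) and -0.13 in males (95% interval -0.63 to 0.36). *Smad1* lay below 0 in both sexes, at -0.28 in males and -0.19 in females. In simulated counts this fit recovered 159 of 200 genes, drawn at random from all tested genes, whose genotype effect differed between the sexes by a log2 of 1.

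The Id genes and *Smad7* varied together from culture to culture, and *Smad6* did so with *Smad7* and *Id2*. A few libraries stood at the ends for most of these 5 genes: within *APOE3*, replicate 33 was the lowest for 5 of 5 and replicate 30 the highest for 3 of 5, and within *APOE4*, replicate 43 was the lowest for 4 of 5 and replicate 38 the highest for 5 of 5. *Id1*, for example, was 478 CPM in *APOE3* replicate 30 and 284 CPM in replicate 33, and 402 CPM in *APOE4* replicate 38 and 236 CPM in replicate 43. To measure this, log2 CPM was correlated over the 16 libraries after the genotype mean was subtracted, and p-values came from 100000 permutations within genotypes, adjusted over the 45 pairs of the 10 genes.

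Of the 45 pairs, 15 passed by Pearson's r (13 positive and 2 negative), and 11 of these also by Spearman's rho. The lowest absolute r of a passing pair was 0.624, a value that 33.3% of the 45 pairs and 4.78% of all pairs among the 10099 genes of at least 5 CPM reached. All 15 passing pairs had an r of the same sign in both genotypes.

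*Id1* and *Id3* were the closest pair (r = 0.943, rho = 0.929, permutation p = 1e-05, the smallest these permutations can give, adjusted p = 0.000225). Their r was 0.939 within *APOE3* and 0.946 within *APOE4*, and 0.916 without the 2 libraries farthest out in *Id1* (*APOE3* replicate 30 and *APOE4* replicate 38). *Id1* and *Smad7* followed (r = 0.905, rho = 0.909, permutation p = 1e-05, adjusted p = 0.000225), with r = 0.89 without the same 2 libraries. *Id2* tracked *Smad7* (r = 0.876, rho = 0.874, adjusted p = 0.000562) and *Id1* (r = 0.862, rho = 0.821, adjusted p = 0.000562), the latter falling to r = 0.73 without those 2 libraries.

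*Smad6* was the loosest of the 5. It tracked *Smad7* (r = 0.752, rho = 0.679, adjusted p = 0.0134) and *Id2* (r = 0.734, rho = 0.7, adjusted p = 0.0186), but its relations to *Id1* (r = 0.575, adjusted p = 0.0654) and *Id3* (r = 0.473, adjusted p = 0.132) did not pass. Across the 10 pairs of these 5 genes, of which 8 passed, r ran from 0.473 to 0.943, and from 0.549 to 0.942 after the cell cycle score was regressed out.

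**Figure D3:**
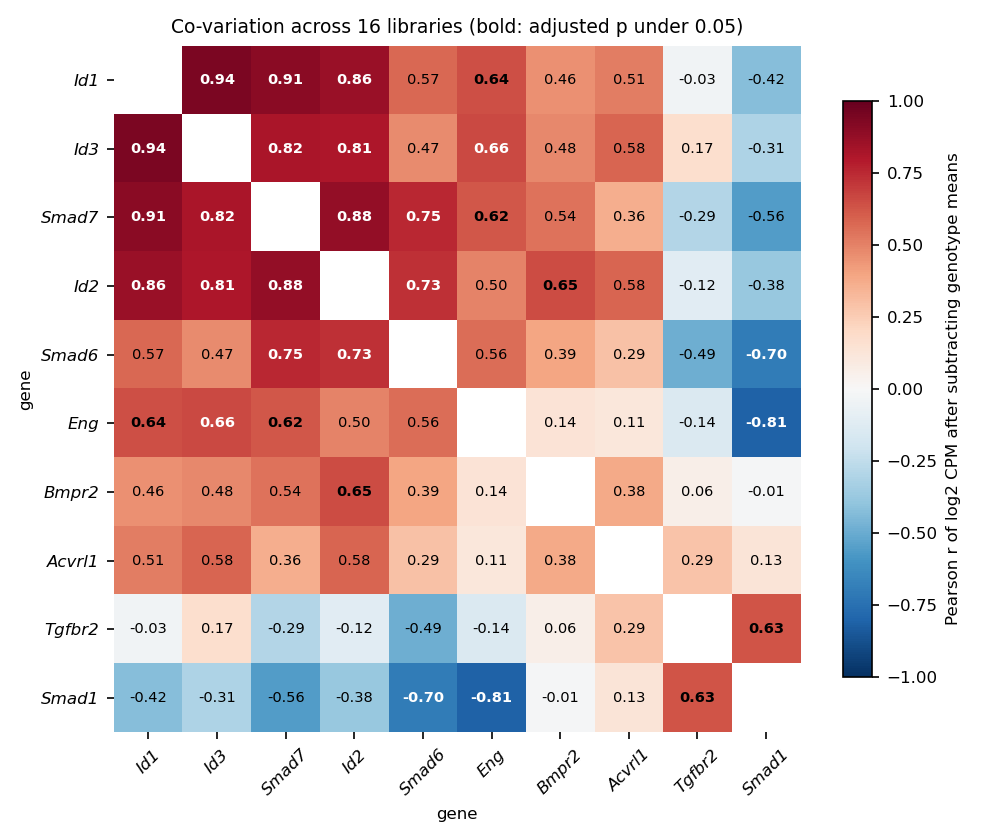
Pearson r between the 10 genes over 16 libraries, computed on log2 CPM after subtracting genotype means; color gives r from -1 to 1 and bold type marks an adjusted p under 0.05. *Id1*, *Id3*, *Smad7* and *Id2* form the block of highest r (0.812 to 0.943), and *Smad1* is the gene with negative passing values, against *Eng* (-0.808) and *Smad6* (-0.697).

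The receptors joined this pattern unevenly. *Eng* varied with *Id3* (r = 0.659, rho = 0.532, adjusted p = 0.0278), *Id1* (r = 0.643, rho = 0.482, adjusted p = 0.0349) and *Smad7* (r = 0.624, rho = 0.432, adjusted p = 0.0467) by Pearson's r but not by Spearman's rho (adjusted p of 0.149, 0.158 and 0.202). Without the 2 libraries farthest out in *Id3*, *Id1* or *Smad7*, r of *Eng* with that gene was 0.523, 0.633 and 0.333. With the cell cycle score regressed out, the 3 values were 0.921, 0.851 and 0.771. *Bmpr2* varied with *Id2* (r = 0.65, rho = 0.644, adjusted p = 0.0278). Its r with *Id2* was 0.363 in *APOE3* and 0.813 in *APOE4*, a difference that was not tested. *Acvrl1*, the receptor closest to Smad1 and the Id genes in the pathway, passed with none of the other 9 genes, its highest r being 0.585 with *Id3* (adjusted p = 0.0654). *Tgfbr2* was flat against *Id1* (r = -0.032, adjusted p = 0.926) and passed only with *Smad1* (r = 0.628, rho = 0.747, adjusted p = 0.0349). By rank, *Tgfbr2* and *Smad1* were both higher where the endothelial marker score was higher, and the part of that score in this pair was not tested.

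*Smad1* and *Eng* moved in opposite directions. Their r was -0.808 (rho = -0.621, permutation p = 0.00052, adjusted p = 0.00334; adjusted p = 0.0722 for rho). *Eng* was lowest and *Smad1* highest in *APOE3* replicate 33 (3057 and 522 CPM) and again in *APOE4* replicate 43 (2852 and 458 CPM), and without these 2 libraries r was -0.541. *Smad1* was likewise lower where *Smad6* was higher (r = -0.697, rho = -0.7, adjusted p = 0.0198), with r = -0.631 without the 2 libraries farthest out in *Smad6*. With the Id genes, r of *Smad1* was below 0 and did not pass, at -0.423 with *Id1* (adjusted p = 0.188), -0.382 with *Id2* (adjusted p = 0.246) and -0.308 with *Id3* (adjusted p = 0.357). With the cell cycle score regressed out, r of *Smad1* was -0.765 with *Id1*, -0.838 with *Id2* and -0.681 with *Id3*. These values and their change were not tested.

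**Figure D4:**
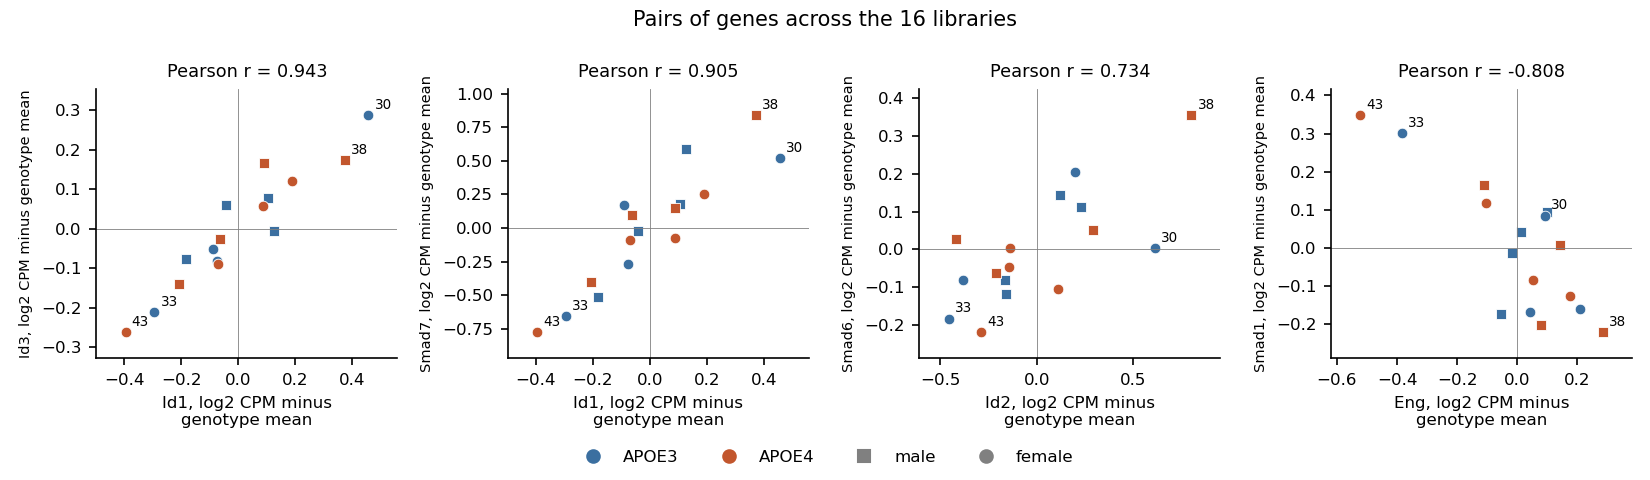
Log2 CPM minus the genotype mean for *Id1* against *Id3*, *Id1* against *Smad7*, *Id2* against *Smad6* and *Eng* against *Smad1*; each point is 1 of 16 libraries, colored by genotype, with squares for males, circles for females and 4 replicates numbered. Replicates 33 and 43 sit at the low end of *Id1*, *Id3* and *Smad7* and at the upper left of the *Eng* and *Smad1* panel, where r is -0.808.

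Outside the 10 genes, those whose values followed *Id1* most closely among 10089 genes of at least 5 CPM were *Retreg3* (r = 0.887), *Cxcl12* (r = 0.876) and *Atoh8* (r = 0.864), over 16 libraries. For *Smad6* they were *Picalm* (r = 0.906), *Fam129b* (r = 0.847) and *Ilk* (r = 0.847). For *Acvrl1* they were *Sox17* (r = 0.843), *Dram2* (r = 0.826) and *Arl8a* (r = 0.808), and for *Tgfbr2*, *Trp53inp2* (r = 0.854), *Tacc1* (r = 0.85) and *Lrrc32* (r = 0.834). These were the highest of many values and carry no test. Without the 2 libraries farthest out in the named gene, r was 0.792 to 0.848 for the followers of *Id1* and 0.828 to 0.838 for those of *Smad6*. It fell to 0.657 to 0.782 for those of *Acvrl1* and to 0.505 to 0.745 for those of *Tgfbr2*.

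The rest of the pathway was read from a list of 95 other genes in 9 roles, of which 78 were tested. At an adjusted p under 0.05, 8 were higher and 7 lower in *APOE4*, 19.2% of those tested against 12.8% of all genes, with a median log2 fold change of -0.023 against -0.000219 over all genes. None of the 11 ligands tested passed. *Bmp6* (506 CPM in *APOE3*, 469 CPM in *APOE4*) had an adjusted p of 0.3028, and *Tgfb2* (44.1 and 57.9 CPM) one of 0.06314.

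Of 9 other receptors tested, 2 fell in *APOE4* (22.2%, against 6.09% of all tested genes). Each role holds few genes, and no role was tested against the share over all genes. *Tgfbr3* went from 398 ± 30.2 to 344 ± 41.2 CPM (SD, n = 8 each; log2 fold change -0.21, adjusted p = 0.04213). *Acvr2b*, an activin type II receptor, went from 9.56 to 7.51 CPM (log2 fold change -0.35, adjusted p = 0.0331). Of 5 other Smads, 2 fell (40.0%, against 6.09% of all tested genes). They were *Smad4*, the shared partner of all receptor-activated Smads (log2 fold change -0.11, adjusted p = 0.03866), and *Smad3*, the TGF-beta branch transducer (log2 fold change -0.13, adjusted p = 0.04782). *Smad5*, the close relative of *Smad1*, was at 137 CPM in *APOE3* and 136 CPM in *APOE4* (adjusted p = 0.8962).

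On the lists of antagonists and of TGF-beta storage and release, the genes that passed were all higher in *APOE4*. They made up 33.3% and 22.2% of the genes tested on these lists, against 6.71% of all tested genes called higher. Of 6 antagonists tested, *Fstl1* (130 to 184 CPM, log2 fold change 0.51, adjusted p = 0.02964) and *Twsg1* (52.4 to 63.6 CPM, log2 fold change 0.28, adjusted p = 0.01069) rose. Among 9 genes of TGF-beta storage and release, *Thbs1*, which frees TGF-beta from its latent complex, rose from 1158 ± 323 to 1819 ± 478 CPM (SD, n = 8 each; log2 fold change 0.65, adjusted p = 0.01947), and the integrin subunit *Itgav* rose by 0.21 (adjusted p = 0.03076). None of the 11 intracellular brakes passed, *Ski*, the most abundant, having an adjusted p of 0.1276.

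Target genes of the BMP branch and of the TGF-beta branch were counted apart. Of 8 other BMP targets tested, none rose and 2 fell (25.0%, against 6.09% of all tested genes). They were *Tmem100*, a membrane protein induced through ALK1 (6.66 to 4.51 CPM, log2 fold change -0.56, adjusted p = 0.04922), and the transcription factor *Gata2* (log2 fold change -0.17, adjusted p = 0.03145). With each of the 16 libraries left out in turn, *Tmem100* kept its call in 4 fits and *Gata2* in 10. The 8 BMP targets had a median log2 fold change of -0.13, and the Id genes, which belong to the same branch, lay on the same side without passing. *Smad6* and *Smad7*, which active Smad1 also raises, did not share a side. Their log2 fold changes were -0.020 (edgeR adjusted p = 0.8889) and 0.066 (edgeR adjusted p = 0.8652). Of 20 TGF-beta targets, 4 rose and 1 fell (25.0% in all, against 12.8% of all tested genes), with a median log2 fold change of 0.089. *Snai2*, a repressor active in the endothelial-to-mesenchymal transition, rose by 0.52 with no overlap between the genotypes (adjusted p = 0.007476), and *Fn1* (0.33), *Col4a1* (0.17) and *Tgm2* (0.13) rose too, while the cell cycle inhibitor *Cdkn1a* fell by 0.11. Whether the 2 lists differ from each other was not tested. The dimer partners that Id proteins bind, *Tcf3*, *Tcf4* and *Tcf12*, gave no call among 3.

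**Figure D5:**
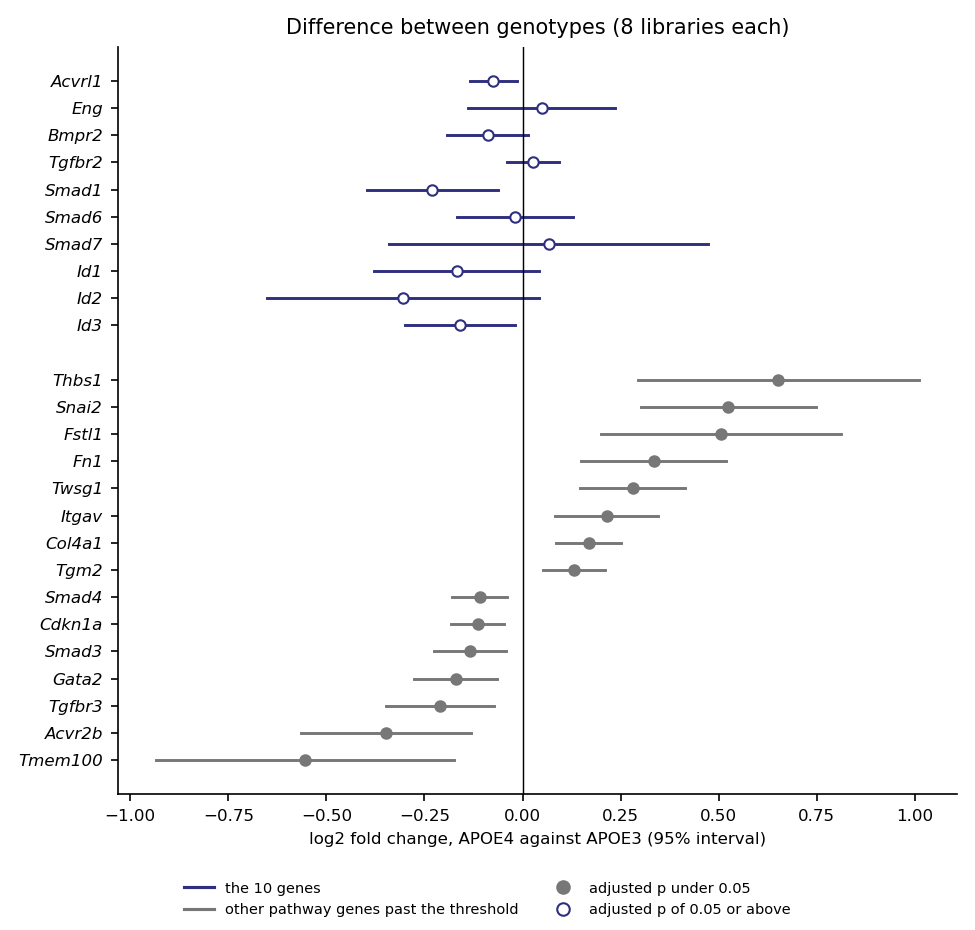
Log2 fold change of *APOE4* against *APOE3* with its 95% interval, 8 libraries per genotype, for the 10 genes and for the 15 other pathway genes with an adjusted p under 0.05 (filled points). *Thbs1* (0.65) and *Tmem100* (-0.56) stand at the ends, and the open points of the 10 genes lie between -0.31 and 0.066.

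Which pathway genes passed depended on single libraries. *Twsg1*, *Thbs1*, *Col4a1*, *Fn1* and *Snai2* passed whichever of the 16 libraries was left out, and the other 10 did not. The 7 lower calls went to 0 without *APOE3* replicate 30 or 33, to 1 without *APOE3* replicate 26 or 28 or *APOE4* replicate 35 or 41, to 3 without *APOE4* replicate 39 or 40, to 4 without *APOE3* replicate 25 or *APOE4* replicate 38, and to 12 without *APOE4* replicate 43. The 8 higher calls went to 5 without *APOE3* replicate 30 or 33 or *APOE4* replicate 35 or 41. Calls over all tested genes shifted in the same fits, from 1597 to 853 without *APOE3* replicate 30 and 952 without replicate 33. They numbered 1080 without *APOE4* replicate 35, 846 without replicate 41 and 1854 without replicate 43. The cell cycle score was higher in *APOE4* and was chosen because its genes had differed between genotypes in these same libraries. A fit that holds it therefore cannot tell its part from that of genotype. With the score as a covariate in edgeR 0 of 12481 genes passed, with 897 at an unadjusted p under 0.05. Of the fibroblast list, 5 of 9 markers were tested and 1 passed, *Fbln1*, which rose from 11.5 to 21.5 CPM (log2 fold change 0.90, adjusted p = 0.005419), while *Col1a1* was at 12.99 and 12.82 CPM (adjusted p = 0.9759). The summed fibroblast level was 24.9 to 75.4 CPM in *APOE3* and 28.2 to 106 CPM in *APOE4*, and *Dpt* was at 0. *Cnp* of the oligodendrocyte list rose by 0.23 (adjusted p = 0.01434), and of the 16 endothelial markers *Emcn* rose by 0.14 (adjusted p = 0.01059) while *Egfl7* fell by 0.16 (adjusted p = 0.008346) and *Robo4* fell by 0.12 (adjusted p = 0.02143). Their part in these calls was not tested.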

How the data were processed

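RNA from 16 primary brain endothelial cell cultures was sequenced from poly-A libraries (100 ng RNA, 17 PCR cycles). The deposited table holds raw counts per gene, made by the authors with STAR and featureCounts per the labels, on mm10 with the human genome hg38 also named; versions, annotation release and strand setting were not given in the sources used here. One identifier is human *APOE*; 38872 of 39056 mouse identifiers matched GENCODE release M21, which gave symbols, coordinates and exon lengths.

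Genes were filtered with filterByExpr, scaled by TMM and tested with edgeR 4.0.16 quasi-likelihood F tests in R 4.3.3 (*APOE4* against *APOE3*, all 16 libraries, no covariate), with Benjamini-Hochberg adjustment over 12481 genes and a threshold of 0.05. A 4-group fit gave contrasts within and between sexes. CPM used TMM-scaled totals; log2 CPM had a prior count of 2. Correlations used log2 CPM after subtracting genotype means. The steps were tested on simulated data. Promoters came from RefSeq, GRCm38.p6. Alternatives used DESeq2 1.42.0, limma 3.58.1 and sva 3.50.0.

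Each library is a separate animal. The members and all gene lists were chosen with earlier results of these data known. Named besides the 10 genes were every other pathway gene past the threshold, the gene of highest mean CPM in each role, and, for *Id1*, *Smad6*, *Acvrl1* and *Tgfbr2*, the 3 genes of highest r with a mean of at least 5 CPM; further genes were named after their values were seen, for context. At these totals *Id2* and *Smad7*, the lowest of the 10, had 153 to 878 counts per library.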

Additional observations from a re-analysis of the deposited data

Results flagged for a closer look

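In 4 of 58 groups of 8 libraries (29 named genes in 2 genotypes), 1 library stood apart from the others of its genotype by Dixon's test; chance gives about 1 in 20. *Acvrl1* was 1041 CPM in *APOE4* replicate 36, with the next library at 985 CPM and the lowest at 952 CPM. *Smad6* was 52.6 CPM in *APOE4* replicate 38, with the next at 42.6 CPM and the lowest at 35.3 CPM. *Tgm2* was 712 CPM in *APOE4* replicate 38, the lowest of its genotype, with the next at 821 CPM and the highest at 851.5 CPM. *Smad5* was 149 CPM in *APOE3* replicate 31, the highest of its genotype, with the next at 138.5 CPM and the lowest at 129 CPM.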

How the results depend on the processing

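Of the 10 genes, 2 passed with DESeq2's Wald test (*Acvrl1* and *Smad1*), which called 1958 of all 12481 genes. Under the other 9 alternatives that kept all libraries 0 passed, and leaving out each library in turn gave 0 to 1. Calls over all tested genes ran from 846 to 2127 in the leave-one-out fits. Among the other pathway genes the leave-one-out counts were 5 to 10 higher and 0 to 12 lower. With no filter on low counts 4 were lower, while 1290 of all 22474 genes passed. With the cell cycle score or the endothelial marker score as a covariate, 0 were higher and 0 lower, and 0 and 23 of all genes passed. With the cell cycle score the log2 fold change changed sign for *Eng* (-0.12), *Bmpr2* (0.0031), *Smad1* (0.0025), *Tgfbr3* (0.015), *Smad3* (0.013), *Fstl1* (-0.093), *Thbs1* (-0.034), *Tmem100* (0.14), *Gata2* (0.0070), *Fn1* (-0.016), *Ski* (4.1e-05) and *Tcf4* (0.030). It did so for *Smad7* with the endothelial score (-0.10), for *Smad6* after correction for GC content and length (0.019) and for *Smad5* with limma (0.0014). Leaving out single libraries moved *Smad6* from -0.078 to 0.011, *Smad7* from -0.088 to 0.16 and *Smad5* from -0.033 to 0.011. The cause was not tested. The passing pairs of the 10 genes numbered 15, against 11 with genotype-by-sex means subtracted and 21 with the cell cycle score regressed out. No paired analysis was possible because the genotypes share no replicate numbers.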
